A study of Mus musculus with 31 samples.

Results

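The genes described here are 9 neighbours of Cyfip1 on mouse chromosome 7: Nipa1, Nipa2, Tubgcp5, Ube3a, Snrpn, Ndn, Magel2, Herc2 and Atp10a. They were chosen by position, as genes whose human counterparts lie with CYFIP1 in the 15q11-q13 interval, and all 9 of them were found among the 48709 genes of the count tables. The libraries came from the basolateral amygdala (BLA), a nucleus that stores fear memories, with left and right punches pooled for each of 31 C57BL/6N mice. There were 16 WT mice and 15 mice (CYFIP1 OE) that carried a human CYFIP1 bacterial artificial chromosome, inserted by pronuclear injection. The study describes its WT mice as littermates, but only 5 of the 10 name groups (mice with one prefix in their labels) hold both genotypes. In the line labelled 1 there were 8 WT and 7 CYFIP1 OE mice, and in the line labelled 3 there were 8 of each, with both sexes in every group. WT mice were 58 to 61 days old, CYFIP1 OE mice of line 3 were 58 to 64 days old and those of line 1 were 59 to 77 days old. The 4 mice aged 77 days were all CYFIP1 OE mice of line 1, so that this age cannot be told apart from that group. Each line descends from 1 founder, and whether the artificial chromosome also carries sequence of human genes that flank CYFIP1 is not given in the sources used here.

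In humans, deletions and duplications of 15q11-q13 give Prader-Willi, Angelman and Dup15q syndromes. CYFIP1, NIPA1, NIPA2 and TUBGCP5 lie together at one end of it and are expressed from both parental copies. Further inward lie imprinted genes: SNRPN, NDN and MAGEL2 are expressed from the paternal copy, and UBE3A is expressed from the maternal copy in neurons. Nipa1 and Nipa2 encode magnesium transporters, Tubgcp5 encodes a subunit of the gamma-tubulin complex that nucleates microtubules, and Herc2 and Ube3a encode ubiquitin ligases. Snrpn encodes a protein of the splicing machinery, Ndn (necdin) and Magel2 encode proteins of the MAGE family, and Atp10a encodes a lipid flippase. Because the added gene was human CYFIP1 alone as far as the labels say, the comparison asks whether expression around the mouse locus moved with the transgene.

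On GRCm38 the 9 genes lie on chromosome 7 between 55794154 and 62381640, an interval of 6.59 Mb. Tubgcp5 (55794154 to 55831677, plus strand, 20 exons after merging of transcripts) lies just before Cyfip1 (55841745 to 55932602, plus strand), and Nipa2 (55931287 to 55962476, minus strand) overlaps its end. Nipa1 (55977567 to 56019954, minus strand) and Herc2 (56050196 to 56231800, plus strand, 93 exons) follow. Atp10a (58656166 to 58829420, plus strand), Ube3a (59228750 to 59311536, plus strand) and Snrpn (59982495 to 60140219, minus strand) lie further on. Ndn (62346569 to 62350262) and Magel2 (62377010 to 62381640) are both on the plus strand and consist of 1 exon each.

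The start sites of these genes are shown because Ndn and Magel2 varied together across mice while Snrpn did not follow Ndn. RefSeq gave 13 windows for the 9 genes on GRCm38.p6, each from 250 bases before to 50 bases after a start site. The 8-base palindrome CGCATGCG, which was picked after the windows had been read and is the core of the motif named for the factor NRF1, stood in 5 of the 13 windows. Those 5 were the 4 windows of Snrpn and the 1 window of Ndn, and the word stood in none of the other 8. It was thus shared by Ndn and Snrpn, and not by Ndn and Magel2, the pair that varied together. Of all 32851 mouse windows of this length, 1.87% held it. That share is no test of the word, which was picked from these windows and stood mostly in windows of 1 gene. The box TATAAA, read on both strands, stood in 2 of the 13 windows, that of Magel2 and the second of Snrpn, against 13.62% of all windows. In the sequences below the capitals mark CGCATGCG or TATAAA, and each is written 5′ to 3′ on the strand of its gene.
Ndn, chr7:62348027-62348326, plus strand: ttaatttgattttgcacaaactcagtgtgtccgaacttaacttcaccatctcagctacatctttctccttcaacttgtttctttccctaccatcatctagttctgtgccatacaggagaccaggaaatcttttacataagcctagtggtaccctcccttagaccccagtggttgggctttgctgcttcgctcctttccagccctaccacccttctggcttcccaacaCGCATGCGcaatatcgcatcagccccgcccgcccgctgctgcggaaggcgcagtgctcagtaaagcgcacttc
Magel2, chr7:62376729-62377028, plus strand: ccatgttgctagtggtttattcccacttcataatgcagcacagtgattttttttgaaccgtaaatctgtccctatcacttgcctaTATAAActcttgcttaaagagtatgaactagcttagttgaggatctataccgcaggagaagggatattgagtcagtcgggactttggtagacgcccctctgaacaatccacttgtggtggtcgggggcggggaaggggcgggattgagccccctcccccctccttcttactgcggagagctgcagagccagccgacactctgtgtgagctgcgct
Snrpn, chr7:60005150-60005449, minus strand: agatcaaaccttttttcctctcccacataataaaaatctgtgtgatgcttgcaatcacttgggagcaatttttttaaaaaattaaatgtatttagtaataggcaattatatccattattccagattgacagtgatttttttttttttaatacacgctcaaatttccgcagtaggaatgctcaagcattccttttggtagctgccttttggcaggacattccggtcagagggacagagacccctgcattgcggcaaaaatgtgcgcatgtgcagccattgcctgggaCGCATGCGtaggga

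The other 3 Snrpn windows resembled each other around the same word, and a short stretch of each is given for comparison. The last of them, at a RefSeq start site, lies outside the span given above for Snrpn, 59982495 to 60140219.
Snrpn, within chr7:60047929-60048228, minus strand: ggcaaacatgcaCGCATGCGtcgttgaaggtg
Snrpn, within chr7:60140176-60140475, minus strand: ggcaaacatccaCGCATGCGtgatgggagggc
Snrpn, within chr7:60450128-60450427, minus strand: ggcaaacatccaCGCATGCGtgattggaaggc
In Ndn the word began at position -23 from the start site, and in the first Snrpn window it began at position 37. The windows of Ndn, Magel2 and Snrpn held 11, 10 and 2 to 7 CpG dinucleotides. Those of the other 6 genes held 18 to 38, and the median over all windows was 7. These are descriptions of the letters in the windows, and no measurement here tested what binds them.

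QuantSeq reads only the 3′ end of polyadenylated RNA and gives about 1 fragment for each transcript whatever its length, so levels are given as CPM, the count scaled by the size of its library, without division by length. Total counts per mouse ran from 5286717 to 8685334, with a median of 7387597. A minimum of 10 reads in no fewer than 20% of the mice left 17428 genes to test, and all 9 neighbours were among them. Ranked by the mean over 31 mice, Ube3a stood highest at 206.5 ± 23.4 CPM (SD), followed by Snrpn at 193.5 ± 33.7 and Ndn at 165.2 ± 44.5. Herc2 came next at 103.6 ± 18.2 CPM. Tubgcp5 (12.68 ± 3.98 CPM), Nipa1 (12.18 ± 2.97) and Nipa2 (9.19 ± 2.94) lay about an order of magnitude lower, and Magel2 (4.93 ± 5.01) and Atp10a (1.73 ± 1.08) were lowest. Neighbours in this order were often not separated within a mouse. Ube3a exceeded Snrpn in 21 of 31 mice, Snrpn exceeded Ndn in 21, and Tubgcp5 exceeded Nipa1 in 18. Ndn exceeded Herc2 in 28 of 31 mice, and Herc2 exceeded Tubgcp5 in all 31.

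The spread between mice differed widely between the genes. Ube3a had a coefficient of variation of 11.3% over the 31 mice and Herc2 one of 17.6%, whereas Magel2 had one of 101.6%, where counting error alone at its mean count would give 16.2%. For Atp10a, whose counts were 0 to 30 per mouse, the spread was 62.5% and counting error 28.1%. In Nipa2 the values were 32% and 12.2%. In each of the 9 genes the spread between mice exceeded the counting error.

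Some of these counts share sequence with other genes. The exons of Nipa2 and Cyfip1 overlap by 1316 bases on opposite strands. Those of Ube3a overlap the opposite-strand transcripts Snhg14, 9330162G02Rik and Gm44560 by 1803, 1796 and 2025 bases. Snhg14 is the host of the antisense transcript that silences the paternal Ube3a copy in neurons. Exons of Snrpn overlap those of Gm38393 and Snurf on the same strand by 589 and 216 bases. Whether the counting used strand is not given in the sources used here. The deposited counts carried decimals in all 31 mice for Nipa2 and Ube3a, as can arise where reads are divided between transcripts. Whole counts were found in only 1 mouse for Cyfip1, 2 for Nipa1 and 3 for Snrpn, and in 17 for Tubgcp5 and 30 for Magel2. For Ndn, Herc2 and Atp10a the counts were whole, within 0.01, in all 31 mice.

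Cyfip1 itself, the mouse gene at the locus, was examined first. Mouse Cyfip1 stood at 33.5 ± 4.48 CPM (SD, n = 16) in WT mice and at 33.01 ± 3.66 CPM (n = 15) in CYFIP1 OE mice. Its log2 difference was -0.02 ± 0.08 (SE), with an adjusted p of 0.999 in edgeR's quasi-likelihood test. In line 1 the lowest, median and highest values were 23.44, 31.5 and 38.56 CPM in WT and 25.2, 34.41 and 37.67 CPM in CYFIP1 OE mice. In line 3 they were 27.56, 35.81 and 39.6 CPM in WT and 27.9, 32.64 and 36.9 CPM in CYFIP1 OE mice. The groups overlapped in both lines. The tables were counted on mouse genes, so human CYFIP1 transcripts could enter them only where reads were assigned to the mouse sequence. The levels of the added gene were therefore not measured by these tables. By qPCR and western blot the paper reported higher CYFIP1 mRNA and protein in the BLA of both its transgenic lines.

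The main comparison asked whether the neighbours differed between CYFIP1 OE and WT mice, with sex and line as further terms. None of the 9 genes was called at an adjusted p under 0.05, and none had an unadjusted p under 0.005 or under 0.05 in edgeR. Over all 17428 genes the percentages were 0 at the adjusted threshold, 0.293 at 0.005 and 4.3 at 0.05, so that 0 of 9 is near that background. The fitted values were positive for 5 genes and negative for 4, with a median log2 difference of 0.03, beside -0.01 over all genes, of which 48.7% were higher. The adjusted p of each of the 9 was 0.999.

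The genes next to Cyfip1 had small differences. Nipa1 stood at 13.17 ± 2.74 CPM in WT and 11.12 ± 2.93 CPM in CYFIP1 OE mice, and its log2 difference of -0.23 ± 0.13 (95% interval -0.50 to 0.03) had the smallest p of the 9, 0.0861 in edgeR. Of 15 CYFIP1 OE mice, 2 lay above the WT mean. In line 1 Nipa1 ran from 10.03 through a median of 11.87 to 18.98 CPM in WT and from 9.37 through 11.88 to 17.05 CPM in CYFIP1 OE mice. In line 3 it ran from 7.68 through 14.18 to 15.73 CPM in WT and from 5.90 through 10.26 to 15.16 CPM in CYFIP1 OE mice. The ranges overlapped in both lines, and in line 3 the CYFIP1 OE median lay below the WT median. In the 5 mixed name groups, with name group in place of line, the Nipa1 difference was -0.42, with a p of 0.0397 and an adjusted p of 0.999 in edgeR. Of the 18 mice in them 16 are of line 3, so this is close to a line 3 value.

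Nipa2 stood at 9.16 ± 2.22 CPM in WT and 9.22 ± 3.64 CPM in CYFIP1 OE mice, with a log2 difference of -0.04 ± 0.17. In line 1 its lowest, median and highest levels were 7.16, 9.05 and 14.82 CPM in WT and 4.05, 8.20 and 11.72 CPM in CYFIP1 OE mice, 3 of which lay below every WT mouse. In line 3 they were 4.94, 8.51 and 10.96 CPM in WT and 6.21, 10.99 and 15.17 CPM in CYFIP1 OE mice, 4 of which lay above every WT mouse. The difference of the line 3 effect from the line 1 effect was 0.66 ± 0.33 in log2, with a p of 0.0566 and an adjusted p of 0.629 in edgeR. Tubgcp5 showed the opposite arrangement. Its log2 difference over all mice was -0.00 ± 0.17, made up of 0.31 ± 0.23 in line 1 and -0.30 ± 0.22 in line 3, and the difference between the lines was -0.61 ± 0.32 (p of 0.0682, adjusted p of 0.653 in edgeR). In line 1 Tubgcp5 ran from 8.80 through 9.68 to 14.66 CPM in WT and from 9.97 through 12.5 to 19.97 CPM in CYFIP1 OE mice. In line 3 it ran from 10.43 through 14.13 to 19.73 CPM in WT and from 4.46 through 10.75 to 20.82 CPM in CYFIP1 OE mice, 4 of which lay below every WT mouse.

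**Figure D1:**
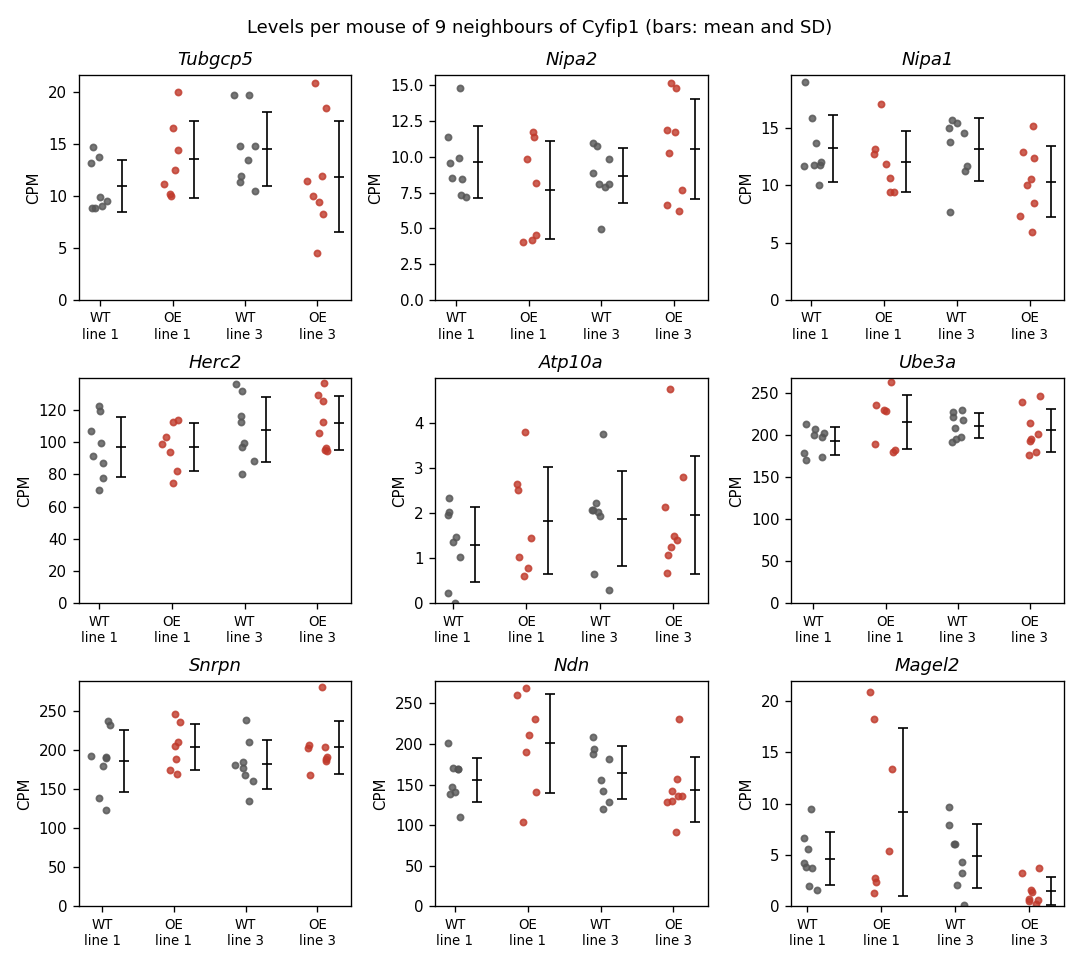
Each point is the level of 1 gene in 1 mouse in CPM, by genotype and line, with the mean and SD of each group as black bars. The 9 genes are in chromosome order, every panel starts at 0, and the groups overlap in every panel, with Magel2 in CYFIP1 OE mice of line 3 reaching at most 3.73 CPM.

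The ubiquitin ligases were the most tightly estimated. Ube3a stood at 202.5 ± 17.8 CPM in WT and 210.7 ± 28.3 CPM in CYFIP1 OE mice, a log2 difference of 0.06 ± 0.07 with a 95% interval of -0.09 to 0.20. In line 1 it ran from 170.3 through 199.4 to 213.6 CPM in WT and from 180.2 through 229.1 to 263.8 CPM in CYFIP1 OE mice, 4 of which lay above every WT mouse. In line 3 it ran from 192.4 through 213.9 to 230.0 CPM in WT and from 176.4 through 198.6 to 246.7 CPM in CYFIP1 OE mice. The fitted Ube3a difference was 0.16 ± 0.10 in line 1 and -0.04 ± 0.10 in line 3, and these did not differ beyond their errors (edgeR p of 0.158). Herc2 stood at 102.3 ± 19.6 and 105.0 ± 17.1 CPM, a log2 difference of 0.03 ± 0.09. Its interval of -0.16 to 0.22 ran from 0.896-fold to 1.16-fold. Atp10a, at 1.59 ± 0.966 and 1.89 ± 1.21 CPM with 1 WT mouse at 0, had a log2 difference of 0.29 ± 0.39 and an interval of -0.51 to 1.08, from 0.705-fold to 2.11-fold.

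Snrpn had the second smallest p of the 9. It stood at 183.7 ± 34.5 CPM in WT and 203.9 ± 30.4 CPM in CYFIP1 OE mice, a log2 difference of 0.15 ± 0.09 with an edgeR p of 0.117 and an adjusted p of 0.999. Of the 15 CYFIP1 OE mice, 12 lay above the WT mean. In line 1 the lowest, median and highest levels were 123.6, 190.4 and 237.3 CPM in WT and 169.1, 205.1 and 245.9 CPM in CYFIP1 OE mice. In line 3 they were 135.1, 179.2 and 238.2 CPM in WT and 168.4, 197.0 and 280.4 CPM in CYFIP1 OE mice. The fitted difference was 0.14 ± 0.14 in line 1 and 0.16 ± 0.13 in line 3. The value of 280.4 CPM came from the 1 library whose expression profile stood apart from the rest, with a standardized connectivity Z of -4.74 where the next lowest was -1.18. Per its methods the study left out samples with a Z under -2, whereas this mouse was kept in the main fits here. Without that mouse the Snrpn difference was 0.11, with an edgeR p of 0.226. Adding 5 surrogate variables gave -0.00.

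In the fit over all mice, the 95% interval of the genotype difference lay below a 1.5-fold rise for 8 of the 9 genes. It lay above a 1.5-fold fall for 8 of the 9. The exceptions were Atp10a for a rise and Magel2 for a fall. This does not hold within each line, where intervals were wider. In line 1 they reached 3.83-fold for Magel2 and 1.72-fold for Tubgcp5, and went down to 0.545-fold for Nipa2. In line 3 they reached 1.66-fold for Nipa2, and went down to 0.594-fold for Tubgcp5 and 0.612-fold for Nipa1.

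**Figure D2:**
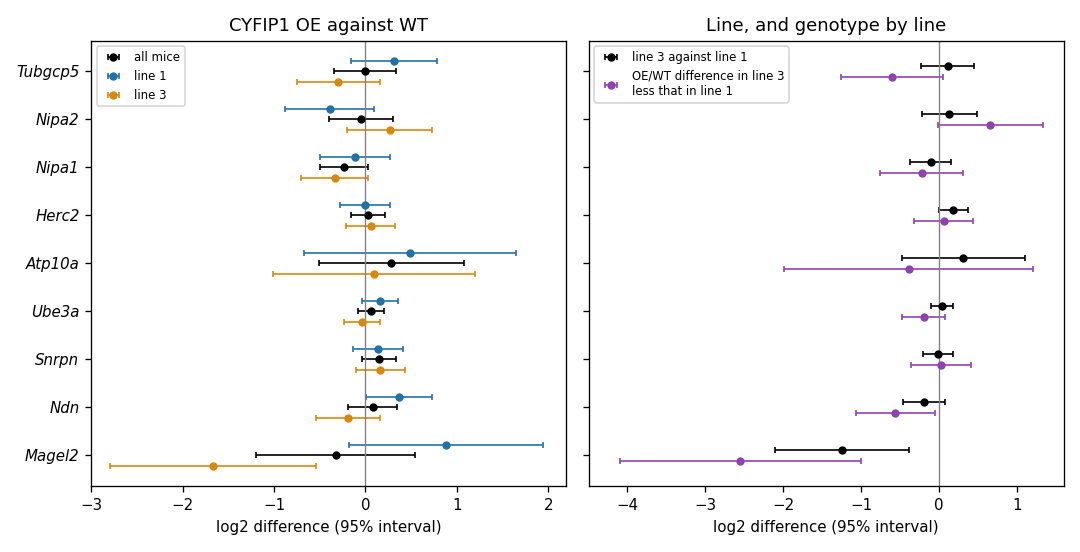
Points are log2 differences from the edgeR model and bars are 95% intervals, with genes in chromosome order. The left panel gives CYFIP1 OE against WT in all mice and within each line, and the right panel gives line 3 against line 1 and the difference between the 2 genotype effects. Magel2 and Atp10a have the widest bars, and the Magel2 line 3 value of -1.67 lies apart from the line 1 value of 0.88.

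The second question was whether the genotype difference was alike in both lines. No gene of the 17428 was called for genotype by line at the adjusted threshold in edgeR, which is a background of 0%. DESeq2 called 2 genes, neither among the 9. At an unadjusted p under 0.005 the background was 0.843% and 1 of the 9 passed, Magel2. At an unadjusted p under 0.05 the background was 8.1% and 2 of the 9 passed, Magel2 and Ndn. With 9 genes, 2 is a small count to set against that share.

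Magel2, whose protein works with the WASH complex in recycling of membrane proteins, was low and very uneven. In line 1 the WT mice ran from 1.61 through a median of 4.02 to 9.50 CPM. The CYFIP1 OE mice of line 1 had 1.33, 2.40, 2.79, 5.41, 13.34, 18.28 and 20.9 CPM, and 3 of them lay above every WT mouse of that line. In line 3 the WT mice had 0.148, 2.02, 3.24, 4.31, 6.05, 6.08, 7.92 and 9.65 CPM. The CYFIP1 OE mice of line 3 had 0.179, 0.470, 0.571, 0.673, 1.34, 1.56, 3.26 and 3.73 CPM. All 8 of the latter lay below the WT median of their line, 5.18 CPM, although the ranges overlapped because 1 WT mouse was at 0.148 CPM. These levels rested on 1 to 165 reads per mouse.

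Over all mice Magel2 stood at 4.78 ± 2.77 CPM in WT and 5.08 ± 6.74 CPM in CYFIP1 OE mice, with a log2 difference of -0.33 ± 0.43 (edgeR p of 0.468, adjusted p of 0.999). The fitted Magel2 difference was 0.88 ± 0.52 in log2 in line 1 (edgeR p of 0.1) and -1.67 ± 0.55 in line 3 (p of 0.00471, adjusted p of 0.513). The difference between the lines was -2.55 ± 0.76, with a 95% interval of -4.10 to -1.00, a p of 0.00195 and an adjusted p of 0.529 in edgeR. Without the 4 mice aged 77 days it was -2.06 (p of 0.0225, adjusted p of 0.874), and without the mouse of low connectivity it was -2.34 (p of 0.0032, adjusted p of 0.239). Within line 1 the Magel2 difference fell to 0.39 ± 0.67 without the 4 mice aged 77 days (edgeR p of 0.567). Line 3 holds none of those mice, so leaving them out tests nothing there, and its value stayed at -1.66 ± 0.54. Without the mouse of low connectivity, which is of line 3, the line 3 value was -1.47 ± 0.54. These are edgeR fits. For line 3, an unadjusted p under 0.05 was reached by 1 of the 9 genes, beside 7.95% of all genes, and none was called at the adjusted threshold, beside 0%. In the mixed name groups the Magel2 difference was -1.74, with a p of 0.0278 and an adjusted p of 0.999 in edgeR. Line 3 had 4 of these groups, and mean Magel2 was 0.571, 0.179, 2.10 and 1.71 CPM in their CYFIP1 OE mice against 6.12, 5.92, 3.24 and 3.10 CPM in their WT mice. The 1 such name group of line 1 held 1 CYFIP1 OE mouse at 18.28 CPM and 1 WT mouse at 1.61 CPM.

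Ndn, a paternally expressed gene that limits neuronal cell division and death, lay in the same direction with a smaller size. Over all mice it stood at 160.3 ± 29.6 CPM in WT and 170.4 ± 57.1 CPM in CYFIP1 OE mice, with a log2 difference of 0.08 ± 0.13 (edgeR p of 0.552, adjusted p of 0.999). In line 1 it ran from 110.5 through a median of 158.3 to 200.7 CPM in WT mice. The CYFIP1 OE mice of line 1 had 103.3, 140.6, 190.7, 211.0, 230.7, 260.9 and 268.5 CPM, and 4 of them lay above every WT mouse of the line. In line 3 it ran from 119.7 through 168.7 to 209.2 CPM in WT and from 90.99 through 135.5 to 230.2 CPM in CYFIP1 OE mice, 7 of which lay below the WT median. The fitted difference was 0.37 ± 0.18 in line 1 (edgeR p of 0.0469) and -0.19 ± 0.17 in line 3 (p of 0.272), and the difference between the lines was -0.56 ± 0.25 (p of 0.0304, adjusted p of 0.571). For line 1, a p under 0.05 was reached by Ndn alone of the 9, beside 3.96% of all genes, and none was called at the adjusted threshold, beside 0%. Of the 4 CYFIP1 OE mice aged 77 days, all lay at 190.7 CPM or above in Ndn. Without them the Ndn difference in line 1 was 0.10 ± 0.23 and the difference between the lines was -0.28 (p of 0.338).

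Line alone separated none of the 9 genes at the adjusted threshold, where the background was 0%. At an unadjusted p under 0.05 the background was 3.31% and 1 of the 9 passed, Magel2, which was lower in line 3 by a log2 difference of -1.25 ± 0.43 (p of 0.00874, adjusted p of 1 in edgeR). Among WT mice alone, however, that difference was -0.04, with an edgeR p of 0.935, and the WT medians of the lines were 4.02 and 5.18 CPM. With age added to the model it was -0.79 (p of 0.0866). Herc2 had a line difference of 0.18 ± 0.09 (p of 0.0584). The other 7 genes had differences between -0.19 and 0.31. Because 7 of the 8 WT mice of line 1 belong to 1 name group, line and name group cannot be told apart in full.

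Sex was a term of the model. None of the 9 genes was called for it at the adjusted threshold, which 0.0631% of all genes passed. At an unadjusted p under 0.05, 4.62% of all genes and 1 of the 9 passed. That gene was again Magel2, at 6.47 ± 6.06 CPM in 15 males and 3.48 ± 3.36 CPM in 16 females, a log2 difference of 1.00 ± 0.43 with an adjusted p of 0.97 in edgeR.

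The 9 genes were then set among the other genes of the interval. Of 313 genes of the tables between the outermost of them, 42 were tested, 33 of them not among the 9. For genotype, 0 of the 42 had a p under 0.05 in edgeR, beside 4.3% of all genes, and 47.6% were higher, beside 48.7%. The median log2 difference of the 42 was -0.01. For genotype by line the counts were less even. The line 3 effect lay below the line 1 effect for 35 of the 42 genes, so that 16.7% were higher, beside 48.6% of all genes. Of the 42, 7 had an unadjusted p under 0.05, or 16.7%, beside 8.1%, and 6 of those 7 were negative. None was called at the adjusted threshold. The median was -0.21, beside -0.01 over all genes. Without the mice aged 77 days 32 of 42 were lower, and without the mouse of low connectivity 33 of 42 were, both beside close to an even split of all genes (50.1% and 47.8% higher). Many of the 42 are transcripts that overlap or adjoin each other around Ube3a and Snrpn, so they are not independent of one another.

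Among the 33 others the negative values with an unadjusted p under 0.05 were those of 4 genes. Gm44829, a transcript model whose class awaits experimental testing, stood at -1.72 ± 0.45 (p of 0.000507, adjusted p of 0.508 in edgeR), and 9330162G02Rik, which overlaps Ube3a on the opposite strand, stood at -0.63 ± 0.23 (adjusted p of 0.534). A230057D06Rik, a long non-coding RNA between Snrpn and Ndn, stood at -1.00 ± 0.34 (adjusted p of 0.534), and Gabra5, which encodes a GABA-A receptor subunit, stood at -0.88 ± 0.38 (adjusted p of 0.57). The 1 positive value was that of Gm34121 at 1.15 ± 0.47 (adjusted p of 0.56). These 5 were named after their values were seen. For Gabra5, WT mice of line 3 ran from 16.73 through a median of 27.15 to 90.59 CPM. CYFIP1 OE mice of line 3 ran from 13.88 through 19.14 to 41.93 CPM. How far the Gabra5 value rests on the WT mouse at 90.59 CPM was not tested. The line 1 difference was positive for 73.8% of the 42, beside 50.4% of all genes, and the line 3 difference for 35.7%, beside 47.5%.

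**Figure D3:**
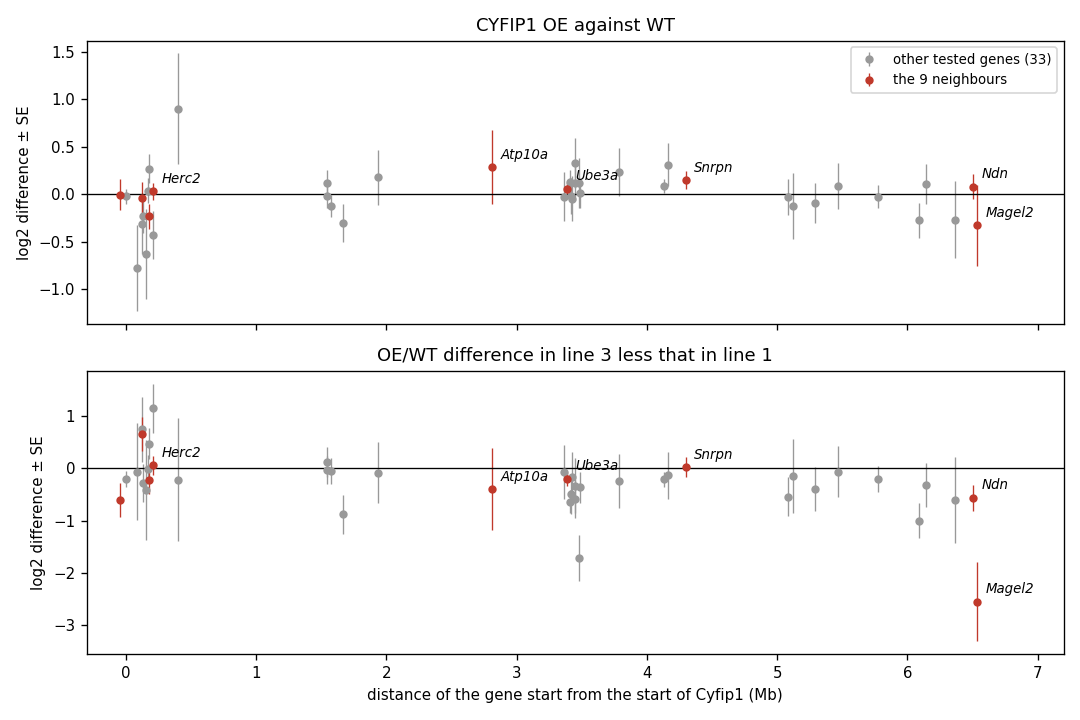
Each point is 1 of the 42 tested genes between the outermost neighbours, with its log2 difference and SE, against the distance of its start from the start of Cyfip1 in Mb, red for the 9 neighbours and grey for the other 33. The upper panel gives CYFIP1 OE against WT and is centred near 0, and in the lower panel, the difference between the 2 genotype effects, 35 of the 42 points lie below 0.

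Across the 31 mice, after removal of sex, line and genotype, few pairs of the 9 genes were related. Of the 36 pairs, 12 had a positive r and the median r was -0.04. In the permutation test, 4 pairs had an unadjusted p under 0.05, and 2 pairs passed after Benjamini-Hochberg adjustment over the 36. Ndn and Magel2, which lie next to each other, had a Pearson r of 0.629 (permutation p of 0.00011, adjusted p of 0.00396) and a Spearman rho of 0.598 (permutation p of 0.0004, adjusted p of 0.0144). Without the 2 mice farthest from the median of Ndn, r was 0.589. Within the 4 groups of line and genotype r was positive in each, at 0.352 (WT) and 0.59 (CYFIP1 OE) for line 1 and at 0.68 (WT) and 0.465 (CYFIP1 OE) for line 3. Snrpn and Magel2 had an r of -0.525 (permutation p of 0.00226, adjusted p of 0.0407) and a rho of -0.534 (permutation p of 0.00255, adjusted p of 0.0459). Without the 2 farthest mice r was -0.462, and it was negative in all 4 groups (-0.729, -0.577, -0.43 and -0.821). This call was lost when 1 library was left out. It was also lost when sex, line and genotype were not removed (r of -0.495, adjusted p of 0.0839 in the permutation test). Without the mouse of low connectivity, which had the highest Snrpn and 0.179 CPM of Magel2, r was -0.434 (permutation p of 0.0158, adjusted p of 0.189), whereas Ndn and Magel2 had 0.646 (permutation test, adjusted p of 0.0054). Snrpn and Ndn, both paternally expressed, had an r of -0.012 with a permutation p of 0.95 and a rho of -0.073 with a permutation p of 0.694. Nipa1 and Nipa2 had an r of 0.215 (permutation p of 0.246) and a rho of 0.192 (permutation p of 0.298). Ube3a and Herc2 had an r of 0.323 (permutation p of 0.0762, adjusted p of 0.38). Without the 2 mice farthest from the median of Ube3a it was 0.63, and within the 4 groups it was 0.371, -0.254, 0.833 and 0.716.

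**Figure D4:**
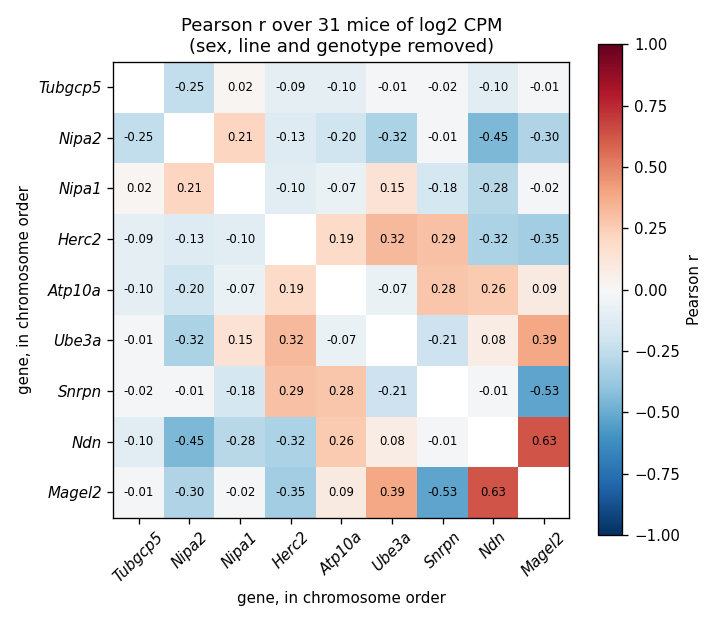
Each cell is the Pearson r of 2 genes over 31 mice, from log2 CPM after removal of sex, line and genotype, with genes in chromosome order on both axes. The strongest cells are Ndn with Magel2 at 0.63 and Snrpn with Magel2 at -0.53.

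**Figure D5:**
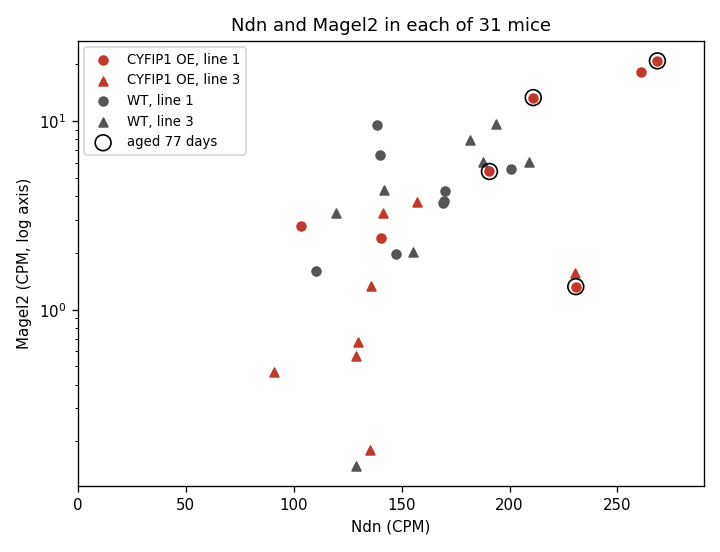
Each point is 1 mouse, with Ndn in CPM on a linear axis and Magel2 in CPM on a log axis, coloured by genotype and shaped by line, and with the 4 mice aged 77 days ringed. The 3 highest Magel2 values, 13.34 to 20.9 CPM, belong to CYFIP1 OE mice of line 1 with Ndn at 211.0 CPM or more.

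The punches were checked against markers of the cells they could hold. All 8 neuronal markers, all 6 markers of glutamatergic principal neurons and all markers of glia and endothelium were detected, but not at an even level in every punch. Slc17a7, a marker of the principal neurons, ran from 26 to 6187 reads per mouse with a median of 1549. Neurod2 ran from 18 to 1162 reads and Neurod6 from 3 to 1257, and Rspo2 was at 0 in 1 mouse. Camk2a, of the same list, had 2954 reads or more in every mouse. Of 8 neuropeptide and marker genes of the hypothalamus, where Magel2 and Ndn are known to be abundant, only Pomc passed the filter, with 0 to 45 reads per mouse, but others were high in single mice. Pmch reached 298 reads, Oxt 90, Trh 51 and Avp 50. The reads of all 8 summed to 20 to 67 per mouse in WT and 13 to 463 in CYFIP1 OE mice of line 1, and to 12 to 109 in WT and 10 to 32 in CYFIP1 OE mice of line 3. Group medians of these sums were 37 (WT) and 48 (CYFIP1 OE) in line 1 and 23.5 and 19 in line 3. The mouse with 463 reads, of CYFIP1 OE line 1, had 18.28 CPM of Magel2 and 260.9 CPM of Ndn. The next had 109 reads, in WT line 3, with 9.65 CPM of Magel2, the highest of its group, and 193.8 CPM of Ndn. The third had 77 reads, in CYFIP1 OE line 1, with 20.9 CPM of Magel2 and 268.5 CPM of Ndn. Both values were the highest of all mice. The fourth had 67 reads, in WT line 1, with 6.65 CPM of Magel2 and 140.2 CPM of Ndn. That Ndn value lay below the median over all mice, 155.5 CPM. Of 6 markers of striatal projection neurons, 5 passed, and their summed level ran from 169 to 3850 CPM between mice. These striatal markers summed to medians of 2110 CPM in WT and 1460 CPM in CYFIP1 OE mice of line 1, and to 1310 and 2160 CPM in line 3. Microglial markers summed to medians of 190 and 169 CPM in line 1 and to 172 and 197 CPM in line 3. Neuronal markers had medians of 3330 CPM in WT and 3510 CPM in CYFIP1 OE mice of line 1, and of 3760 and 3480 CPM in line 3. Those of glutamatergic principal neurons had medians of 816 and 941 CPM in line 1 and of 1170 and 1040 CPM in line 3. In bulk tissue, fewer cells of a type and less RNA per cell cannot be told apart.

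Of the 72 pairs of a neighbour and a marker list, 2 passed after adjustment over the 72. Magel2 and the microglial list had an r of -0.598 (permutation p of 0.00051, adjusted p of 0.0367) and a rho of -0.581 (adjusted p of 0.0211). Snrpn and the same list had an r of 0.557 (permutation p of 0.00133, adjusted p of 0.0479) and a rho of 0.582 (adjusted p of 0.0211). Both kept their sign within each group of line and genotype, at -0.624, -0.639, -0.478 and -0.578 for Magel2 and at 0.64, 0.735, 0.454 and 0.885 for Snrpn. Without the 2 mice farthest from the median the values were -0.454 and 0.492. Without the mouse of low connectivity they were -0.497 and 0.44, and neither passed (permutation test, adjusted p of 0.12 and 0.133). By rho alone, Magel2 and Ndn were also related to the striatal list, at -0.581 (adjusted p of 0.0211) and -0.557 (adjusted p of 0.0239), with r of -0.394 and -0.456 (adjusted p of 0.184 and 0.115 in the permutation test). For Magel2 this r was negative in 3 of the 4 groups and 0.272 in CYFIP1 OE mice of line 3. The hypothalamic list rested on Pomc alone of its 8 genes, so its r values (-0.249 for Magel2 and -0.206 for Ndn) describe that gene and not a cell type. The part of these cell lists, and of the hypothalamic reads, in the Magel2 and Ndn values was not tested.

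The transcripts most like each neighbour over the 31 mice were taken as the 2 with the highest r among genes with a mean of at least 10 CPM, as a description. For Magel2 they were 6330403K07Rik (r of 0.884) and Nap1l5 (0.828), an imprinted gene on chromosome 6, and for Ndn they were Prmt2 (0.906) and Hap1 (0.869). Snrpn was most like Hspa8 (0.828) and Mark4 (0.811), and Herc2 was most like Tmod2 (0.834) and Rab12 (0.827). For Ube3a they were Ccnd1 (0.721) and the overlapping 9330162G02Rik (0.715), and for Nipa2 they were Chn1 (0.733) and Sbk1 (0.715). Nipa1 (Gsr, 0.662, and Mbd1, 0.66), Atp10a (1500009L16Rik, 0.597, and Ppa1, 0.576) and Tubgcp5 (Scfd1, 0.549, and Cep350, 0.538) had weaker partners. The 31 points share library depth and the make-up of the punch.

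Families and complexes of the neighbours were examined as lists. Of 9 other genes of the region, 6 were tested, and none had an unadjusted p under 0.05 for genotype, with a median of 0.03. For genotype no list had a member called at the adjusted threshold. Of the 10 listed gamma-tubulin ring complex genes, which act with Tubgcp5, all were tested. Tubg1 stood at 0.24 ± 0.11 and Mzt2 at -0.38 ± 0.16 with unadjusted p of 0.0386 and 0.0244, and the list's median was 0.03. Of 3 tested relatives of Nipa1 and Nipa2 none had a p under 0.05. The 7 Sm core proteins, partners of the Snrpn protein, had a median of 0.07 and none under 0.05. The 8 HERC and HECT ligases and partners had a median of -0.03 and none under 0.05. Among 13 MAGE family and WASH-retromer genes, 1 had a p under 0.05, Washc4 at -0.25 ± 0.11 (p of 0.0258), and among 9 flippases and their subunit 1 did, Atp11a at -0.26 ± 0.11 (p of 0.0236). The median over all tested genes was -0.01, and 4.3% of them had a p under 0.05.

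Of 26 imprinted genes on other chromosomes or elsewhere on chromosome 7, 25 were tested. For genotype over all mice, 4 were higher and 3 lower at an unadjusted p under 0.05, or 7 of 25, beside 4.3% of all genes, and 19 of 25 had a positive value, beside 48.7% of all genes, with a median of 0.13. Rasgrf1, a nucleotide exchange factor, stood at 0.32 ± 0.12 (p of 0.0116) and Mest at -0.85 ± 0.31 (p of 0.0107), both with an adjusted p of 0.999 in edgeR. For genotype by line, 22 of 25 had a lower effect in line 3, with a median of -0.44, beside -0.01 over all genes, and 3 of them had an unadjusted p under 0.05, beside 8.1% of all genes. At that threshold 7 of the 25 had a positive value and none a negative one in line 1, beside 3.96% of all genes. In line 3 1 had a positive and 3 a negative value, beside 7.95%. Without the mice aged 77 days the line 1 counts were 0 and 0 of 24, and 18 of 24 had a lower effect in line 3. No member of it was called at the adjusted threshold.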

How the data were processed

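Polyadenylated RNA of the BLA was sequenced from 31 mice with the QuantSeq 3′ kit. Per the study's methods, the authors aligned reads with STAR to GRCm38 and estimated counts with Salmon. The deposited tables hold these expected counts per gene, which were rounded here to whole numbers. The filter asked for 10 or more reads in 20% of mice or more (17428 genes). Totals of 5286717 to 8685334 counts per mouse left few reads for Magel2 and Atp10a. Gene names came from GENCODE M21 (48349 of 48709). The test was edgeR 4.0.16 (R 4.3.3), the quasi-likelihood F test with TMM, sex, line and genotype, with Benjamini-Hochberg adjustment over all genes tested. A further fit added genotype by line, and values within lines came from it. CPM are edgeR's values, counts scaled by the TMM-adjusted total of the tested genes. Correlations used log2 CPM with a prior count of 2 and 100000 permutations. Mice were grouped by the labels; nothing says how far mice of a name group are related. In simulated tables of 17428 genes with 200 changed, the genotype test recovered 181 with 10 false calls. The genotype by line test recovered 175 with 9. Its planted changes were larger in log2 than those for genotype, so the 2 recoveries cannot be set against each other. The planted genotype changes were larger than the genotype difference fitted for any of the 9 neighbours. Genes with as few reads as Atp10a were not among those changed, and the simulated spread followed the trend over genes. These rates therefore do not give the power for the 9 neighbours. DESeq2 1.42.0, sva 3.50.0 with 5 surrogate variables, other filters, age, single lines, sexes and name groups, and leaving out mice were alternatives. Values within lines and for the interval and imprinted list without the 77-day mice or the low-connectivity mouse were added after seeing the data. The genes named were the 9 neighbours, Cyfip1, at most 3 genes a list (or of the interval) with the smallest p among those under 0.05 for genotype or line, and the 2 genes of at least 10 CPM most alike to each neighbour. The 5 interval genes named for genotype by line fell outside this rule and were chosen after their values were seen. The members and lists were chosen with earlier results of these data known. Start-site sequences are RefSeq, GRCm38.p6. Strand use in counting is not given in the sources used here.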

Additional observations from a re-analysis of the deposited data

Results flagged for a closer look

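The genotype effects of the 2 lines differed for 2 of the 9 genes at an unadjusted p under 0.05 in edgeR, beside 8.1% of all genes, and for none at the adjusted threshold. For Magel2 the line 3 effect minus the line 1 effect was -2.55 in log2 (adjusted p of 0.529), and for Ndn it was -0.56 (adjusted p of 0.571). Within groups of line and genotype, 1 mouse stood far from the others in 2 of 40 sets of values, where chance gives about 1 in 20. Snrpn was 280.4 CPM in CYFIP1 OE replicate 1 of line 3, and the nearest mouse of its group was at 206.6 CPM. That mouse is the one of low connectivity. Cyfip1 was 27.56 CPM in WT replicate 16 of line 3, and the nearest mouse was at 34.88 CPM.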

How the results depend on the processing

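No paired analysis was possible because the replicate numbers were given in accession order and pair no mice. The mixed name groups, with name group as a term, are the nearest to one. None of the 9 genes was called at an adjusted p under 0.05 in any setting. Genotype differences kept their direction in 88 of 115 recomputed values and in 259 of 279 that each left out 1 mouse. For the rest the cause was not tested. In line 3 alone the log2 difference turned to 0.26 for Nipa2, -0.0344 for Ube3a and -0.19 for Ndn. In line 1 alone it turned to 0.28 for Tubgcp5, 0.89 for Magel2 and -0.0094 for Herc2. With age added it was 0.0949 for Nipa2, 0.0244 for Tubgcp5, -0.0681 for Ndn and -0.0005 for Herc2. Without the mice aged 77 days it was 0.11 for Nipa2, 0.0017 for Tubgcp5, -0.0862 for Ndn and -0.0182 for Herc2. In mixed name groups it was 0.18 for Nipa2, -0.0726 for Ube3a, -0.0418 for Ndn and -0.0428 for Herc2. With 5 surrogate variables it was 0.0416 for Tubgcp5, -0.0022 for Snrpn and -0.002 for Herc2. In females alone it was 0.25 for Nipa2, -0.046 for Ube3a and -0.0152 for Herc2, in males alone 0.0172 for Tubgcp5 and -0.0485 for Ndn, and without the mouse of low connectivity 0.0276 for Tubgcp5. Leaving out 1 mouse gave -0.0923 to 0.0253 for Nipa2 and -0.0767 to 0.0672 for Tubgcp5. Line differences turned to 0.0114 for Nipa1 and -0.17 for Tubgcp5 in females alone, to -0.0723 for Nipa2, -0.0084 for Ube3a and 0.0136 for Snrpn in males alone, to -0.16 for Nipa2 and 0.0702 for Ndn in WT alone, and for Nipa2 to -0.0646 with age added and -0.03 without the mice aged 77 days. Leaving out 1 mouse gave -0.0577 to 0.0177 for Snrpn. The genotype by line value of Snrpn turned to -0.0181 without the mice aged 77 days and -0.0451 without the mouse of low connectivity. The count of neighbours with an unadjusted p under 0.05 for genotype in edgeR was 1 in line 3 alone, beside 6.43% of all genes. It was 2 in mixed name groups, beside 4.55% of all genes, and 0 to 1 when leaving out 1 mouse. For line the count was 0 with at least 10 reads in every mouse (3.58% of all genes) and 2 with 5 surrogate variables (4.44%). It was 0 with age added (2.88%), 0 in males alone (3.29%) and 1 to 2 when leaving out 1 mouse. With at least 10 reads in every mouse, Magel2 and Atp10a were not tested. Of the correlations among the 9 genes, 1 passed without removal of sex, line and genotype, and 1 without the mouse of low connectivity, in both cases that of Ndn and Magel2. Without removal of those terms Snrpn and Magel2 had an adjusted p of 0.0839 in the permutation test. Without that mouse neither microglial relation passed. Over all genes, the count with an unadjusted p under 0.05 was 750 for genotype, 577 for line and 1412 for genotype by line. With no filter on low counts it was 2533, 2433 and 3123. For line it was 1074 in WT alone and 921 in females alone, and for genotype by line 942 without the mice aged 77 days.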
